A study of Mus musculus with 33 samples.

Results

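Fibronectin and 9 matricellular genes were followed through the first days of frontal bone development in the mouse: Fn1, Postn, Tgfbi, Tnc, Thbs1, Thbs2, Sparc, Sparcl1, Smoc1 and Smoc2. They were chosen by name, with earlier results of these data known, and all 10 were found among the 55401 genes of the count table. RNA with poly(A) tails from the frontal bone of the calvaria, the flat bone that forms the forehead, had been sequenced in bulk from E8.5, embryonic day 8.5, onward. Libraries came every 0.5 day up to E12.5 and were followed by E13.5 and E14.5. Each of the 11 stages had 3 libraries, 33 in all, and no treated group was compared. The sources used here give no genotype, strain or number of embryos behind a library. The p-values therefore measure the spread between libraries of a stage, which may be technical. In bulk RNA, a change in the number of cells that express a gene and a change in RNA per cell cannot be told apart.

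Matricellular proteins are secreted into the extracellular matrix but serve less as structural material than as modulators of how cells attach to it and respond to growth factors. Fibronectin is the adhesive glycoprotein that cells assemble into the early provisional matrix, and several matricellular proteins bind it. In membranous bone, which forms directly from mesenchyme, SPARC (osteonectin) and periostin are abundant products of osteoblasts and of the periosteum.

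Library totals ran from 14516518 to 19964404 counts. Principal component 1, with 47.1% of the variance, did not follow the labelled order throughout. The stage means of E11.5, E12, E12.5 and E13.5 were 84.1, 22.1, 41.9 and 100.1. Those of E10 and E10.5, at -37.9 and -46.4, were also out of order. Libraries of a stage were least alike at E12 (lowest pairwise correlation of log2 values 0.9649) and E13.5 (0.9749), against at least 0.9879 at the other stages. Of the lists of cell type markers, the summed level of 8 osteoblast genes was 161 ± 3.79 CPM (counts scaled to a common library size; SD, n = 3) in the E8.5 libraries, 635 ± 44.2 in those of E12.5 and 4279 ± 132 in those of E14.5, and the osteoblast gene Ibsp was at 0 in all libraries of E9 and E9.5. In the same libraries a summed level of 7 neural progenitor genes was 714 ± 15.9, 1264 ± 53.1 and 232 ± 7.96 CPM at these 3 stages. Neuron markers summed to 119 ± 4.19, 1310 ± 47.7 and 533 ± 18.1 CPM. The libraries of these stages thus held RNA of genes used as markers of neural cells as well. Levels below are CPM scaled by TMM factors, and differences are log2 fold changes from edgeR, called at an adjusted p below 0.05.

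All 10 genes changed over the 11 stages in the F-test for any change, as did 95.3% of the 20073 genes tested. From E8.5 to E14.5, 9 of the 10 rose and 1, Smoc1, fell. Among all genes tested, 41.1% were called higher and 33.5% lower in this comparison (8243 and 6731 genes). With library totals alone as scaling the split was 10617 and 4265, and the median of all genes shifted by 0.4331 on the log2 scale, while the 10 genes kept 9 higher and 1 lower. The median log2 change of the 10 genes was 2.28, against 0.16 over all genes tested. The libraries of E8.5 and E14.5 did not overlap for any of the 10 genes, which was also true of 80.4% of all genes. The genes fell into 3 ranges of size. Thbs2, Tnc, Postn and Smoc2 started at 1.63 to 11.6 CPM and gained 6.32 to 7.08 on the log2 scale, Sparc gained 2.65, and Sparcl1, Thbs1, Fn1 and Tgfbi gained 0.90 to 1.92.

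**Figure D1:**
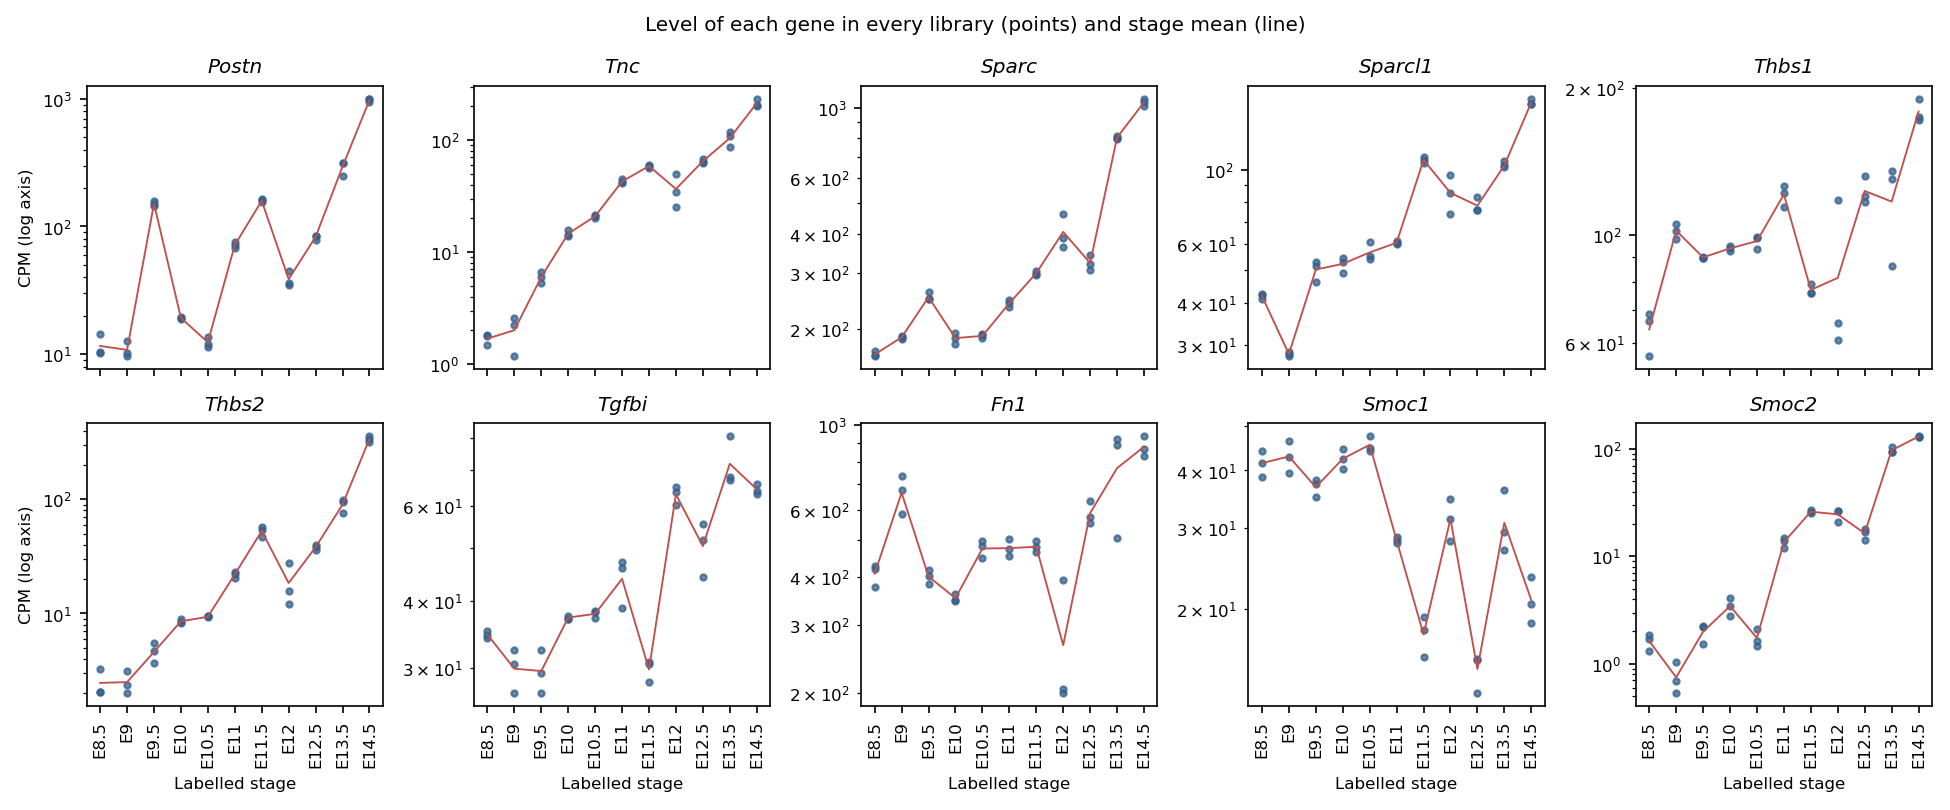
Levels of the 10 genes at each labelled stage, one panel per gene, in CPM on a log axis of its own range. Points are the 3 libraries of a stage and the line joins the stage means. Of the 10 steps between stages, Tnc was called higher in 8 and Thbs2 in 7, each with 1 lower. Postn and Smoc2 were called higher in 6 steps each and lower in 3. Thbs1, Tgfbi and Fn1 stay within 3.31-fold between their highest and lowest stage means.

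The promoters of Postn, Tnc and Thbs2 are shown because these were the genes that gained most among those with a promoter entry. RefSeq promoter sequences (build GRCm38.p6) were matched by symbol for 5 of the 10 genes: Postn, Tnc, Thbs2, Sparc and Tgfbi. Entries for Sparcl1, Thbs1, Fn1, Smoc1 and Smoc2 were not matched. The 250 bases before each start are written 5′ to 3′ on the strand of the gene. Capitals mark matches on either strand. A TATA box was searched as TATAAA. For the box known as CCAAT its own letters were used. An E-box was searched as CANNTG, where N is any base.
Postn, chr3:54360857-54361106, plus strand: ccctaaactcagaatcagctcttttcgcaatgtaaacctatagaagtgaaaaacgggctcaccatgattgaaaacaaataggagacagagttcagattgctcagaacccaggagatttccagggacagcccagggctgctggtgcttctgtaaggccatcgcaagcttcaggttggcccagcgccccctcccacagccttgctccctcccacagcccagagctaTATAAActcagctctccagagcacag
Tnc, chr4:64047016-64047265, minus strand: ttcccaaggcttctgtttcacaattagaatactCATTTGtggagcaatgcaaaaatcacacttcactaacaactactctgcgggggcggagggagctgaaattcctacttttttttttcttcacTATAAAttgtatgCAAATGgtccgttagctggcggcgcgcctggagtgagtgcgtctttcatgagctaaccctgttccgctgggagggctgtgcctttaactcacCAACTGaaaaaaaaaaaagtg
Thbs2, chr17:14694263-14694512, minus strand: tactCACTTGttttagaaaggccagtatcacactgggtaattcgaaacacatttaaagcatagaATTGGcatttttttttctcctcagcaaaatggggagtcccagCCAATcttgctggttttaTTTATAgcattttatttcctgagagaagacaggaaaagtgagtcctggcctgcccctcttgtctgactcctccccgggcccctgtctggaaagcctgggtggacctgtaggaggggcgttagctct

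The letters TATAAA were found in all 3 of these windows, and in none of the windows of Sparc and Tgfbi. They begin 26 bases before the start in Postn and 126 bases before it in Tnc and Thbs2, where the Thbs2 match lies on the opposite strand. Of 32851 promoter windows of the same length, 12.4% held them. E-box letters, present in 66.2% of windows, occurred at 3 places in Tnc, 2 in Sparc and 1 in Thbs2. The CCAAT letters, present in 33.8% of windows, occurred at 2 places in Thbs2. A runt site (TGTGGT, 14.0% of windows) and an AP-1 site (TGACTCA, 4.5% of windows) were searched in the same way and had no match in the 5 windows. These matches describe letters and not binding. None of the searched motifs overlaps another in the windows printed.

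Fn1 encodes fibronectin and lies on chromosome 1 (GRCm38, 71585520 to 71653200, minus strand; 11685 exonic bases). It had more counts than any other member over the 33 libraries, 308121 in all. The 3 libraries of E8.5 stood at 377, 420 and 429 CPM, those of E9 at 585, 676 and 736, and those of E10 at 361, 348 and 350. At E14.5 they stood at 936, 865 and 833. E9 was thus above both E8.5 and E10 with no overlap, and E14.5 above all of these. The gene rose by 0.70 ± 0.18 (SE) from E8.5 to E9 (adjusted p = 0.00453), fell by 0.73 ± 0.18 from E9 to E9.5 (adjusted p = 0.00275), and was 1.10 ± 0.18 higher at E14.5 than at E8.5 (adjusted p = 2.23e-06). Neither E10.5 against E8.5 (0.22) nor E12.5 against E10.5 (0.31 ± 0.18, adjusted p = 0.181) passed. Both passed without the libraries labelled E11.5, E12 and E13.5 in the fit, at 0.18 (adjusted p = 0.00903) and 0.31 (adjusted p = 4.10e-05). They also passed when each comparison was fitted on its own libraries (adjusted p = 6.06e-05 and 5.03e-05). Once a trend with gene length was removed, neither passed, at -0.11 (adjusted p = 0.397) and 0.23 (adjusted p = 0.0664).

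At E12 and at E13.5 a single library stood apart from its stage mates in Fn1. The E12 libraries stood at 204, 199 and 394 CPM and the E13.5 libraries at 921, 885 and 508. All E12 libraries, the one at 394 included, lay below those of E11.5. The fall from E11.5 to E12 was -0.85 ± 0.18 (adjusted p = 1.01e-04) and was -0.16 with an adjusted p of 0.176 once a trend with gene length was removed. The step from E12.5 to E13.5 did not pass (0.39 ± 0.18, adjusted p = 0.0612). Without E13.5 replicate c it was 0.62 with an adjusted p of 0.00174. An antisense transcript, Apol7d, shares 292 exonic bases with Fn1 and had 277 counts in all libraries.

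Postn encodes periostin, a FAS1-domain protein of periosteum, tendon and other load-bearing connective tissue (chromosome 3, 54361109 to 54391037, plus strand; 8702 exonic bases). The E8.5 libraries held 10.4, 14.3 and 10.2 CPM and the E10.5 libraries 13.6, 11.4 and 12.1. Those of E12.5 held 84.9, 84.5 and 78.8 CPM, and those of E14.5 held 940, 999 and 989. The E8.5 and E10.5 libraries overlapped, and each later stage named lay wholly above the one before it. E10.5 against E8.5 gave 0.09 and did not pass. Postn then rose by 2.74 ± 0.12 from E10.5 to E12.5 and by 3.56 ± 0.12 from E12.5 to E14.5, for a total of 6.40 ± 0.14 over E8.5 to E14.5 (adjusted p = 1.23e-25). With E11.5-labelled libraries standing in for E12.5 these windows gave 3.69 and 2.61, so which of them held the larger rise turned on that choice. Its 3 nearest courses among 12846 protein-coding genes were those of Samd9l, Cav1 and Col14a1. Their root mean square difference from the Postn course over 11 stage means was 0.49 to 0.52 on the log2 scale, against a spread of 2.03 of Postn about its own mean.

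Tgfbi encodes the other FAS1-domain protein of the set, named for its induction by TGF-beta (chromosome 13, 56609523 to 56639562, plus strand; 3771 exonic bases). The E8.5 libraries held 35.1, 34.1 and 34.5 CPM and the E14.5 libraries 64.0, 65.9 and 63.2, with no overlap. The difference was 0.90 ± 0.09 (adjusted p = 6.45e-10). The change in the earliest window, 0.13 from E8.5 to E10.5, did not pass. The later windows gave 0.42 ± 0.09 from E10.5 to E12.5 (adjusted p = 5.89e-04) and 0.35 from E12.5 to E14.5 (adjusted p = 0.00161). Its E10.5 to E12.5 rise turned to -0.34 (adjusted p = 0.00253) when E11.5-labelled libraries took the place of the E12.5 ones, and the rise that follows became 1.11. Sumf2, Rnh1 and Lgmn had the nearest courses, each 0.17 from that of Tgfbi, whose own spread was 0.45.

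Tnc encodes tenascin-C, a large hexameric glycoprotein that reduces the adhesion of cells to fibronectin (chromosome 4, 63959785 to 64047015, minus strand; 7772 exonic bases). The E8.5 libraries stood at 1.47, 1.77 and 1.81 CPM, from 77 counts together. Those of E10.5 stood at 21.2, 20.1 and 21.4, those of E12.5 at 63.8, 62.5 and 67.7 and those of E14.5 at 233, 206 and 200. Each of these stages lay wholly above the one before, so Tnc had begun to rise in the window in which Postn did not pass the test. The increments were 3.62 ± 0.21, 1.63 ± 0.16 and 1.72 ± 0.15, and 6.97 ± 0.21 over E8.5 to E14.5 (adjusted p = 3.96e-22). The 3 nearest courses were those of Nell1, Cemip and Tbx15 (0.40 to 0.47, against a spread of 2.14). An antisense transcript, 8030451A03Rik, shares 176 exonic bases with Tnc and had 321 counts against 31444.

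Thbs1 and Thbs2 encode thrombospondins that bind CD36 and CD47. Thrombospondin 1 is best known as an inhibitor of new vessel growth and an activator of latent TGF-beta. Thbs1 (chromosome 2, 118111876 to 118127133, plus strand; 6073 exonic bases) held 56.4, 66.7 and 68.9 CPM in the E8.5 libraries and 190, 172 and 174 in the E14.5 ones. Thbs2 (chromosome 17, 14665500 to 14694235, minus strand; 7003 exonic bases) held 2.04, 2.06 and 3.27 CPM in the E8.5 libraries, from 114 counts, and 359, 339 and 319 in the E14.5 ones. Neither gene's libraries overlapped between these stages. Thbs1 gained 1.48 ± 0.16 (adjusted p = 1.01e-09) and Thbs2 gained 7.08 ± 0.23 (adjusted p = 1.73e-21).

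In the 3 windows Thbs2 rose each time, by 1.91 ± 0.24, 2.02 ± 0.18 and 3.15 ± 0.18. Thbs1 rose by 0.60 ± 0.15 from E8.5 to E10.5 (adjusted p = 0.00190) and by 0.54 from E12.5 to E14.5 (adjusted p = 0.00349), and its 0.34 from E10.5 to E12.5 did not pass (adjusted p = 0.0828). That window passed in 4 alternatives, among them the fit without the libraries labelled E11.5, E12 and E13.5 (0.34, adjusted p = 5.44e-06). With E11.5-labelled libraries standing in for E12.5, Thbs1 had -0.33 (adjusted p = 0.0678) and then 1.21. Within a library the log2 ratio of Thbs1 to Thbs2 was 4.66 ± 0.29 (SD, n = 3) at E8.5 and -0.92 ± 0.05 at E14.5. Neither level is scaled by length, so only the shift of the ratio, -5.58, compares stages. An exact two-sided permutation test of that shift gave p = 0.1, the smallest value that 3 libraries against 3 can give. Thbs2 had its nearest courses in Kera, Col6a6 and Lox (0.37 to 0.47, own spread 2.10), and Thbs1 in Phldb2, Ano6 and Lrig1 (0.19 to 0.20, own spread 0.38). An antisense RNA, Gm29233, shares 208 exonic bases with Thbs1 and had 55 counts against 61186.

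Sparc encodes osteonectin, which binds collagen, calcium and hydroxyapatite (chromosome 11, 55394500 to 55423183, minus strand; 3788 exonic bases). The E8.5 libraries held 170, 164 and 165 CPM, the E12.5 libraries 320, 306 and 342, and the E14.5 libraries 1067, 1013 and 1042. No library of one of these stages overlapped those of another. Sparc rose by 0.76 ± 0.07 from E10.5 to E12.5 and by 1.69 ± 0.07 from E12.5 to E14.5, for 2.65 ± 0.07 from E8.5 to E14.5 (adjusted p = 3.47e-23). Its difference of 0.19 ± 0.07 between E10.5 and E8.5 passed (adjusted p = 0.0214). The 16 alternatives gave 0.03 to 0.37, and this call was lost in 9 of them, at 0.03 to 0.18. The step from E12.5 to E13.5 alone was 1.32 ± 0.07. Gstm2, Bgn and Cd9 had the nearest courses, 0.14 to 0.19 away, against a spread of 0.83. Bgn encodes biglycan, a small proteoglycan of bone matrix.

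Sparcl1 encodes hevin, the nearest relative of SPARC, known from blood vessels and brain (chromosome 5, 104079111 to 104113733, minus strand; 2937 exonic bases). The E8.5 libraries held 42.1, 41.1 and 42.5 CPM, the E9 libraries 27.7, 28.5 and 28.1, and the E14.5 libraries 157, 157 and 163. E9 was wholly below E8.5, and E14.5 wholly above both. The fall to E9 was -0.58 ± 0.08 (adjusted p = 5.31e-06) and the difference of E14.5 from E8.5 was 1.92 ± 0.08 (adjusted p = 5.12e-19). The summed level of 7 endothelial markers was 321 ± 6.30, 360 ± 10.2 and 489 ± 18.9 CPM at the same 3 stages, so it did not fall with Sparcl1 at E9. The part of vessel cells in the Sparcl1 levels was not tested. The log2 ratio of Sparc to Sparcl1 moved by 0.72 from E8.5 to E14.5 (exact permutation p = 0.1).

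Smoc1 and Smoc2 encode SPARC-related modular calcium-binding proteins of basement membranes and matrix, and SMOC1 is known as a BMP antagonist. Smoc1 (chromosome 12, 81026808 to 81186414, plus strand; 3496 exonic bases) held 41.6, 44.2 and 38.8 CPM in the E8.5 libraries and 47.5, 44.1 and 44.8 in those of E10.5. The E12.5 libraries held 15.5, 13.1 and 15.6 CPM and the E14.5 libraries 23.5, 20.5 and 18.6. E12.5 and E14.5 lay wholly below E8.5 and E10.5. The fall from E10.5 to E12.5 was -1.62 ± 0.11 (adjusted p = 4.83e-13), and E14.5 was -0.99 ± 0.11 from E8.5 (adjusted p = 1.62e-09). Smoc1 then regained 0.50 from E12.5 to E14.5 (adjusted p = 3.28e-04). With E11.5-labelled libraries standing in for E12.5, this last value was 0.24 and did not pass (adjusted p = 0.0635).

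Smoc2 (chromosome 17, 14279506 to 14404790, plus strand; 6951 exonic bases) went the other way. The E8.5 libraries held 1.33, 1.85 and 1.70 CPM, from 74 counts, and the E10.5 libraries 1.46, 2.11 and 1.64. Those of E12.5 held 17.0, 14.3 and 18.0 CPM, and those of E14.5 held 132, 130 and 130. The first pair of stages overlapped and the later stages did not. It rose by 3.23 ± 0.16 from E10.5 to E12.5 and by 2.99 ± 0.12 to E14.5, for 6.32 ± 0.16 over E8.5 to E14.5 (adjusted p = 6.36e-24). With E11.5-labelled libraries standing in for E12.5 the windows gave 3.90 and 2.32. The log2 ratio of Smoc1 to Smoc2 went from 4.58 ± 0.22 to -2.65 ± 0.16 (SD, n = 3 each), a shift of -7.22. The Postn to Tgfbi ratio went from -1.58 to 3.92, a shift of 5.50. With 4 ratios tested, both shifts had an exact permutation p of 0.1, also after adjustment. The courses nearest to Smoc2 were those of Pax1, Tnni1 and Fxyd7 (0.38 to 0.42, own spread 2.36), and those nearest to Smoc1 were of Tlnrd1, Parvb and Fzd10 (0.23 to 0.24, own spread 0.53).

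Set side by side, the 3 windows differed in how many of the 10 genes changed. These comparisons share the E10.5 and E12.5 libraries and are not independent. From E8.5 to E10.5, 5 rose and 0 fell, where 28.2% of all genes were called higher and 21.3% lower. From E10.5 to E12.5, 7 rose and 1 fell (18.8% and 17.2% of all genes). From E12.5 to E14.5 all 10 rose (25.3% higher and 28.6% lower of all genes). Libraries did not overlap for 7, 10 and 10 of the genes, against 64.7%, 54.2% and 64.9% of all genes. With library totals alone, all genes split into 7190 higher and 2728 lower, 4783 and 2211, and 6072 and 4333 in the 3 windows, against 5666 and 4272, 3765 and 3444, and 5070 and 5736 with TMM. Once the length trend was removed, the first window split into 4479 and 6609. The medians of the 10 log2 changes were 0.21, 0.61 and 1.36, against 0.09, 0.03 and -0.03 over all genes tested. Without the libraries labelled E11.5, E12 and E13.5 the first window had 6 of the 10 genes higher and the second 9. The counts over all genes also went up, to 6304 in the first window and 4945 in the second. Without those labelled E9.5 the first window had 4 of the 10 higher, and 5230 of all genes. Over the last of these windows, summed osteoblast markers went from 635 to 4279 CPM and neural progenitor markers from 1264 to 232. Markers of other tissues moved too, skeletal muscle from 24.8 to 356 CPM, epidermis from 90.4 to 1104, tendon from 33.7 to 105, and the connective and fat tissue genes, a list added later, from 63.1 to 653. Whether the changes of the 10 genes followed the makeup of the tissue was not tested.

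**Figure D2:**
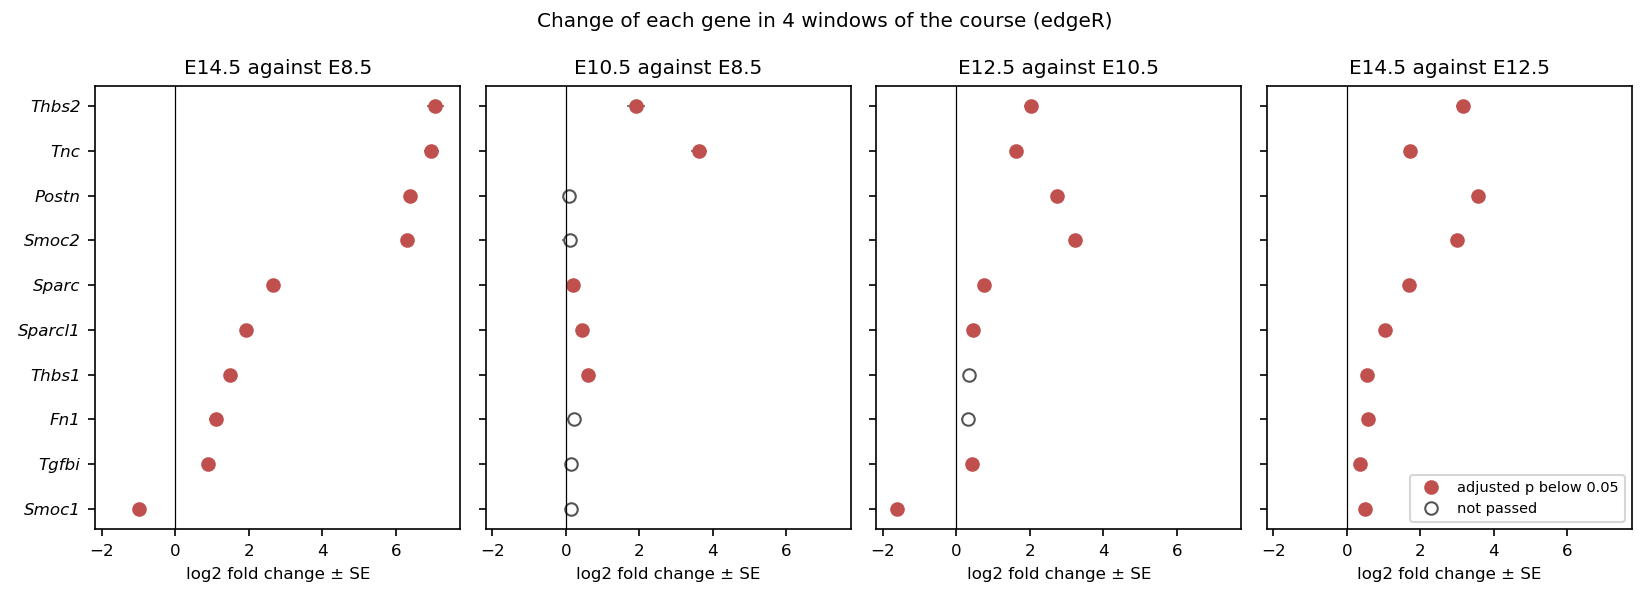
Log2 fold changes of the 10 genes in 4 panels, E14.5 against E8.5 and then the 3 windows within it, with bars of one standard error. Filled points had an adjusted p below 0.05 and open points did not pass. All 10 values are above 0 in the last window, and Smoc1 is the member below 0 by a passing test in the window before it.

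Step by step between neighbouring stages, 47 of 100 gene-by-step comparisons were called higher, 21 lower and 32 did not pass. Over all genes tested 19.0% of such comparisons were called higher and 18.3% lower. Neighbouring steps share a stage. From E8.5 to E9, 2 rose and 2 fell (2515 of the 20073 genes tested were called higher, and 7.66% lower), with Thbs1 up by 0.67 ± 0.16 beside Fn1, and Smoc2 down at -1.14 ± 0.26 beside Sparcl1. Libraries did not overlap for 6 of the 10 (46.1% of all genes). From E10 to E10.5, 1 rose and 2 fell (5.73% and 2.74%), and from E10.5 to E11, 5 rose and 1, Smoc1, fell (19.2% and 17.3%), with Smoc2 at 2.96 ± 0.16 and Postn at 2.53 ± 0.12. From E11 to E11.5, 6 rose and 3 fell (10.7% and 12.3%), the latter Thbs1, Tgfbi and Smoc1 by -0.56 to -0.68. From E12.5 to E13.5, 8 of the 10 rose and none fell (27.2% and 25.9% of all genes), led by Smoc2 at 2.57 ± 0.12, Postn at 1.83 ± 0.11 and Sparc. From E13.5 to E14.5, 7 rose and 1, Smoc1, fell (24.0% and 26.9% of all genes), led by Thbs2 at 1.91 ± 0.17 and Postn at 1.73 ± 0.11. Several small step calls changed when 1 library was left out. Tgfbi from E9.5 to E10 became 0.27 (adjusted p = 0.0647) without E9.5 replicate a, and Sparcl1 from E12 to E12.5 passed at -0.19 (adjusted p = 0.0274) without E12 replicate a. Thbs2 from E9 to E9.5 (0.86 ± 0.25) did not pass without E9 replicate a, E9 replicate c or E9.5 replicate b (adjusted p = 0.0550 to 0.0786). Tnc from E11 to E11.5 (0.46 ± 0.15) did not pass without E11 replicate a or c or E11.5 replicate b or c (adjusted p = 0.0638 to 0.0883). The Tnc rise from E10 to E10.5 (0.52 ± 0.16, adjusted p = 0.0413) did not pass without any 1 of the 6 libraries compared, with adjusted p from 0.0607 to 0.145.

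The E9.5 libraries stood apart in Postn. They held 159, 144 and 151 CPM, against 10.8 ± 1.60 at E9 and 19.2 ± 0.539 at E10 (SD, n = 3). Postn rose by 3.80 ± 0.12 into E9.5 and fell by 2.98 on the log2 scale into E10, and at E9.5 it was 7.87-fold above the highest of E8.5, E9, E10 and E10.5. Of the 20073 genes tested, 81 (0.404%) were at least 5-fold above all 4 of these stages at E9.5 with both steps passing. Postn was the 1 member among them. The rule was set after the values were seen, so the place of Postn in this count is no test of it. From E9 to E9.5, 6 of the 10 genes rose and 1, Fn1, fell (11.1% and 11.7% of all genes). From E9.5 to E10, 4 rose and 2, Postn and Sparc, fell (2905 of the genes tested were called higher, and 12.3% lower). Sparc also rose into E9.5 by 0.42 ± 0.07 and fell by 0.44 ± 0.07 into E10.

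Some genes of other tissues moved with Postn at E9.5. Of the cell type marker lists, osteoblast markers summed to 267, 344 and 291 CPM at E9, E9.5 and E10. Endothelial markers (360, 324 and 259) and epidermis markers (132, 127 and 84.4) had no peak at E9.5. The lists that follow were chosen after their values were seen. The summed level of 8 smooth muscle genes was 391 to 405 CPM at E9.5, against 85.6 to 93.4 at E9 and 76.1 to 82.2 at E10, and 7 of the 8 were higher than at both neighbours, Smtn excepted at 40.5 against 49.8 at E9. Myh11, the smooth muscle myosin, stood at 29.3 ± 1.32 CPM against 0.385 ± 0.0644 at E9. A sum of 8 genes of mature connective and fat tissue was 156 to 168 CPM at E9.5, 1.77 to 2.12 at E9 and 4.67 to 5.01 at E10. Among 4 genes expressed in the uterus, with a sum of 5.20 to 6.73 CPM at E9.5 and 0.631 to 1.35 at E9, Esr1 had 120 counts at E9.5 and 0 at E9, and Hoxa10 had 57 counts at E9.5 and 0 at both E9 and E10. Of the other matricellular genes, tenascin-X (Tnxb) stood at 4.78 ± 0.764 CPM against 0.0387 at E9 and 0.196 at E10, and Mfap5 had 608 counts against 8 at E9 and 16 at E10, both named here after their values were seen. Into E9.5, 7 of the 23 other matricellular genes tested rose, 2 fell and 14 did not pass (11.1% of all genes were called higher and 11.7% lower). The part of other tissues in the Postn level was not tested. E10 against E9, a comparison added after the data were seen, gave 0.82 ± 0.12 for Postn (adjusted p = 2.52e-06) and -0.01 for Sparc (adjusted p = 0.902). In it, 6 of the 10 genes were higher and 1, Fn1, lower (25.3% and 19.3% of all genes), with Tnc at 2.88, Smoc2 at 2.21, Thbs2 at 1.76 and Fn1 at -0.92 ± 0.18.

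**Figure D3:**
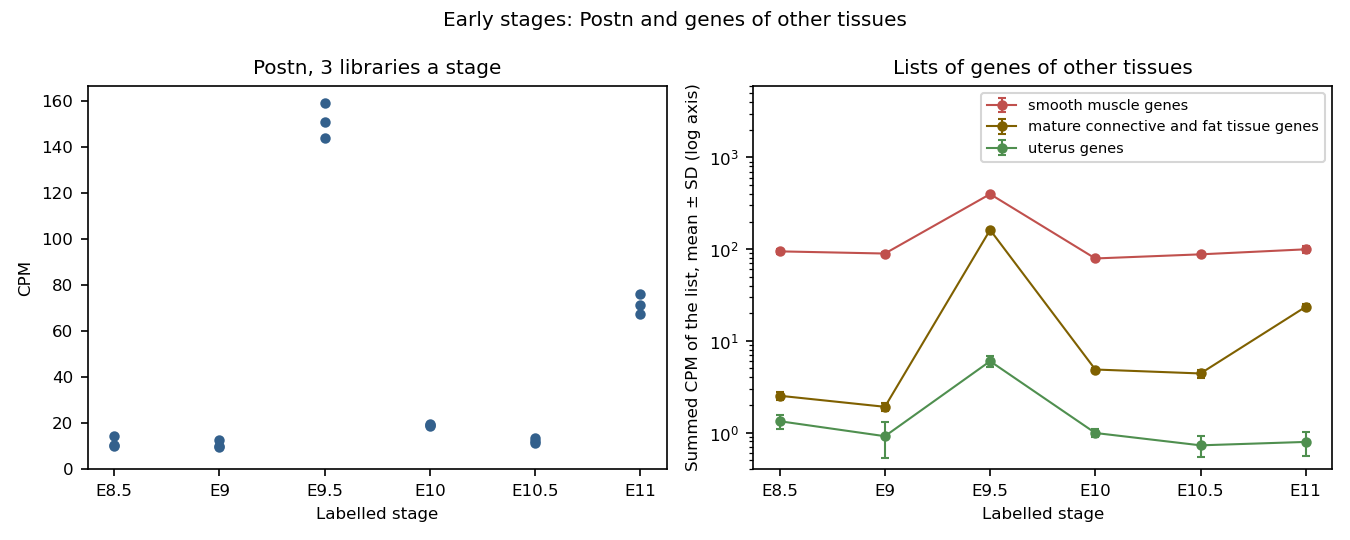
Postn in each library from E8.5 to E11, in CPM on a linear axis (left), and the summed CPM of the smooth muscle, connective and fat tissue, and uterus genes at the same stages on a log axis, as mean and SD of 3 libraries (right). The 3 E9.5 libraries of Postn lie at 144 to 159 CPM, and the 3 lists have their highest point at the same stage.

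Around E12 the genes did not follow the order of the labels. Over E11.5, E12 and E12.5, Postn averaged 159 ± 4.50, 38.7 ± 5.62 and 82.8 ± 3.40 CPM (SD, n = 3). Thbs2 went through the same turn at 52.9, 18.5 and 38.1 CPM, and Tnc at 58.6, 36.6 and 64.7. Tgfbi and Smoc1 had their middle value highest, at 29.8, 63.0 and 50.5 CPM and at 17.6, 31.4 and 14.8 CPM. Into E12, 3 of the 10 genes rose and 5 fell (33.3% and 35.6% of all genes), Postn by -2.04 ± 0.11 and Tgfbi by 1.08 ± 0.09. From E12 to E12.5, 5 rose and 4 fell (32.0% and 31.0% of all genes). Some marker sums of other cells were highest at E12 as well, and others were not. Over the same stages red cell markers averaged 2406 ± 88.2, 18720 ± 8741 and 3837 ± 274 CPM, with E12 libraries from 9323 to 26610. Smooth muscle genes averaged 114, 314 and 153 CPM, mesenchyme markers 1794, 3574 and 2341, and neural progenitor markers 1009, 1961 and 1264. Osteoblast markers, at 945 ± 18.5, 999 ± 319 and 635 ± 44.2, had E12 libraries from 693 to 1330. Endothelial markers stayed at 296, 296 and 297 CPM, and neuron markers stood at 2287, 2315 and 1310. Cartilage markers (488, 358 and 539) and skeletal muscle markers (41.8, 13.4 and 24.8) were lowest at E12. Whether cell makeup or the labelled age differed in another way was not tested.

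Libraries within E12 and within E13.5 differed by gene length. E12 replicate c over the mean of its stage mates was 1.96 for Fn1, 1.98 for Thbs2, 1.87 for Thbs1 and 1.65 for Tnc, all genes with over 6000 exonic bases, and 1.00 for Sparcl1, 1.05 for Tgfbi and 0.851 for Smoc1, all shorter. Length did not order the 10 genes throughout: Sparc, with 3788 bases, stood at 1.24, Postn, with 8702, at 1.27 and Smoc2, with 6951, at 0.794. Over all genes with a mean of at least 5 CPM the median ratio was 0.602 for lengths under 2000 bases and 1.27 for those of 6000 or more. E13.5 replicate c went the other way, at 0.563 for Fn1, 0.651 for Thbs1 and 0.785 for Postn, against 1.29 for Smoc1 and 1.20 for Tgfbi, with medians over all genes of 1.55 and 0.753. Smoc2 stood at 1.11 there, above 1 despite its length. The step of Thbs1 from E11.5 to E12 rested on 1 library: it was 0.09 ± 0.15 (adjusted p = 0.630), and -0.36 (adjusted p = 0.00789) without E12 replicate c. The comparisons of E8.5, E10.5, E12.5 and E14.5 do not set these libraries against others, though they share the estimate of the spread with them. Removal of a length trend still moved them, with a median shift over all genes of -0.2054 for E14.5 against E8.5. For E10.5 against E8.5 it was -0.1585. From E8.5 to E14.5, Fn1 then gave 0.81 in place of 1.10, Tgfbi 0.69 in place of 0.90 and Smoc1 -1.21 in place of -0.99. The calls of the 10 genes in that comparison held.

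**Figure D4:**
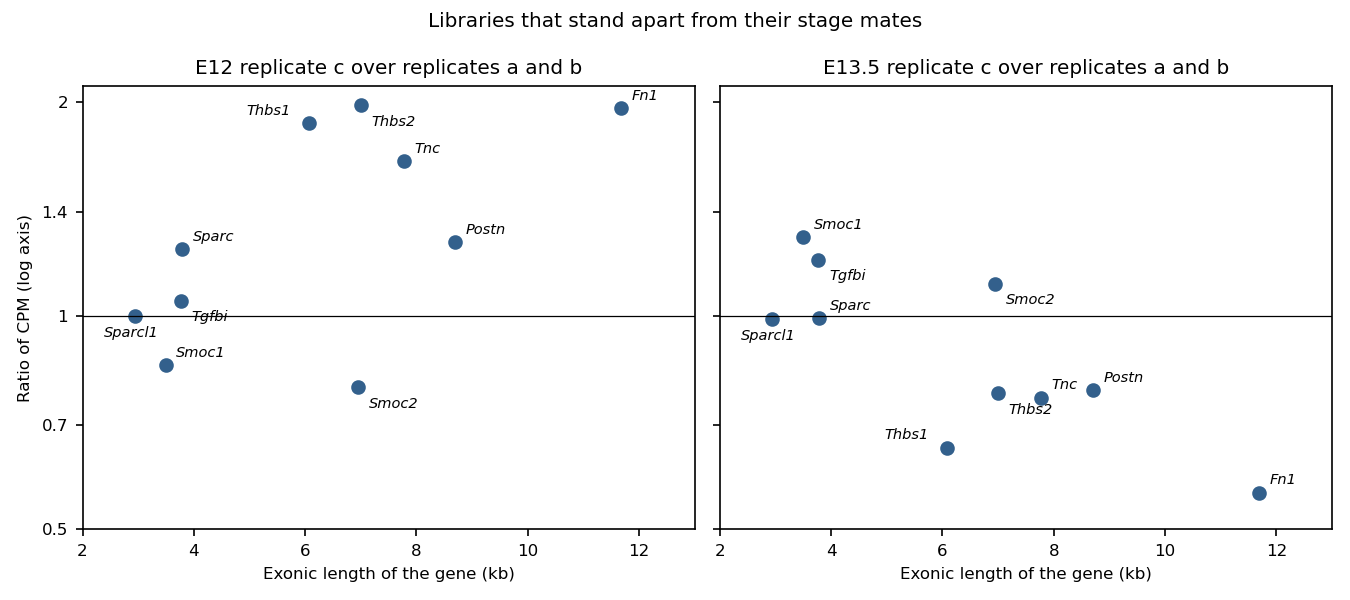
CPM of each of the 10 genes in E12 replicate c (left) and E13.5 replicate c (right) divided by the mean of the 2 other libraries of the stage, on a log axis, against exonic length in kilobases. Fn1, the longest, stands at 1.96 in the E12 library and 0.563 in the E13.5 library.

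To compare levels between genes, TPM was used, in which counts are divided by exonic length and scaled to the same sum in every library. TPM was computed from counts and the exonic lengths in the file, without TMM factors, so its differences between stages are not those of CPM. From E8.5 to E14.5, Sparc went from 166 to 1041 in CPM and from 122 to 1062 in TPM. Scaling by library totals alone raised the log2 change of the median gene by 0.4331 in that comparison. The 10 genes summed to 352 ± 14.7 TPM at E8.5 (SD, n = 3), and to 930 ± 7.52, 840 ± 34.7 and 2564 ± 22.6 TPM in the libraries of E11.5, E12.5 and E14.5. Sparc held the largest share of this sum at E8.5 (34.6%) and at E14.5 (41.4%). Fn1 had the next share at E8.5, 27.5%, and held 11.3% at E14.5, while Postn went from 1.05% to 16.9% and Thbs2 from 0.276% to 7.29%. The share of Smoc1 went from 9.36% to 0.899%. Per length, Sparc was 1062 ± 9.16 TPM at E14.5, Postn 434 ± 21.2 and Fn1 290 ± 14.4. At E12, Sparc had 250 ± 96.8 TPM against 317 ± 12.7 at E12.5, whereas in CPM it was higher at E12 (405 ± 52.4) than at E12.5 (323 ± 18.0). That difference in CPM was -0.33 ± 0.07 from E12 to E12.5 (adjusted p = 1.49e-04), and -0.08 with library totals alone (adjusted p = 0.472). TPM holds no TMM factor, and library totals alone shifted the log2 change of the median gene from E12 to E12.5 by 0.256. How much of the difference between the scales at E12 this makes up was not tested.

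**Figure D5:**
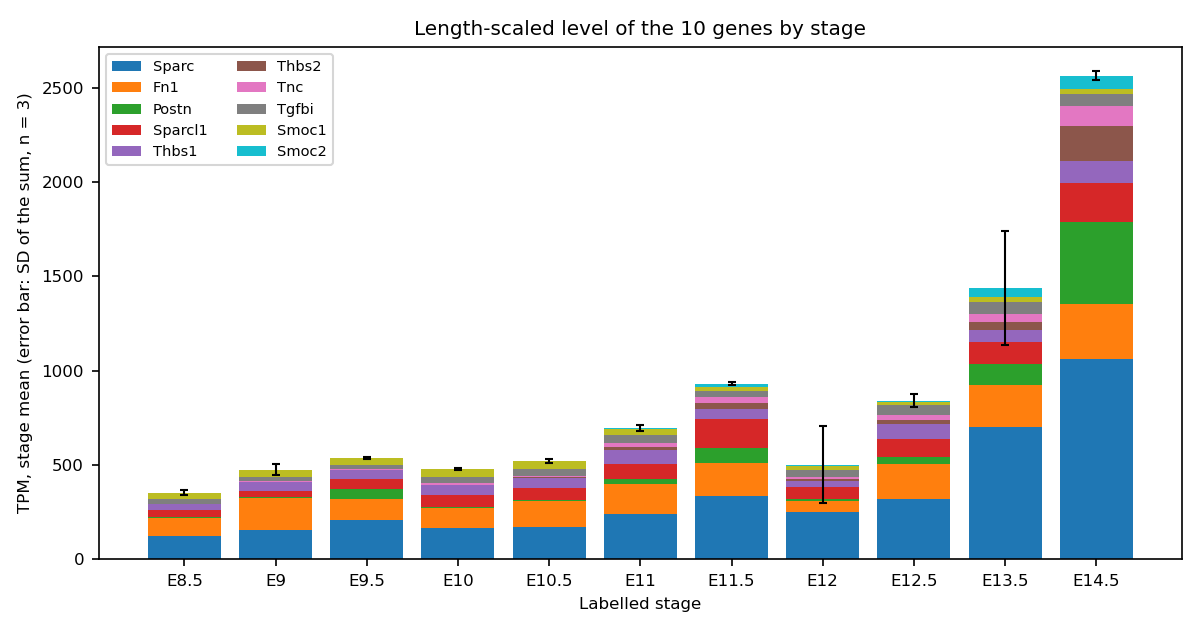
TPM of the 10 genes, without TMM factors, stacked at each labelled stage as means of 3 libraries. The axis is linear from 0, with the SD of the sum as error bar. The summed height is 352 TPM at E8.5 and 2564 at E14.5, and the Sparc block is the largest at both.

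The other matricellular genes were read from a list of 24, of which 23 were tested. From E8.5 to E14.5, 19 rose, 2 fell and 2 did not pass (41.1% of all genes were called higher and 33.5% lower), with a median log2 change of 2.68 against 0.16 over all genes. Ccn3 went from 0.259 to 42.1 CPM (7.28 ± 0.33), tenascin-N (Tnn), a tenascin of periosteum, from 0.0702 to 8.80 (6.91 ± 0.49), Mfap5, a microfibril protein, from 0.283 to 18.6 (6.09 ± 0.46), and Spock1, a testican proteoglycan, from 0.383 to 16.0 (5.32 ± 0.30). The genes that fell were Ccn1 (-1.41 ± 0.11), a YAP-responsive adhesion ligand, and Spon1 (-1.29 ± 0.12), which encodes F-spondin. From E12.5 to E14.5, 18 rose and 1 fell (25.3% and 28.6% of all genes), Vtn, which encodes vitronectin, by -0.83. The window from E8.5 to E10.5 had 10 higher and 2 lower (28.2% and 21.3% of all genes) and that from E10.5 to E12.5 had 11 higher and 5 lower (18.8% and 17.2%). The E8.5 level of Ccn3 rested on 12 counts and that of Tnn on 3, against 521 for Tnn at E14.5. Scaled for library size, the ratio of these Tnn counts was 133. Its exact 95% interval was 45.3 to 648, from counting error only.

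Receptors formed a list of 19 genes, chiefly integrins that bind fibronectin, tenascin-C or periostin, with the thrombospondin receptors Cd36 and Cd47, syndecans, and the SPARC scavenger receptor Stab1. From E8.5 to E14.5, 12 rose, 4 fell and 3 did not pass (41.1% of all genes were called higher and 33.5% lower), with a median of 0.70 against 0.16. The genes with the largest changes were Itgb6 (0.133 to 2.88 CPM, 4.38 ± 0.53), an epithelial integrin subunit, Cd36 (1.82 to 20.2 CPM, 3.47 ± 0.17), the vascular phosphatase Ptprb (1.74 ± 0.21) and Itgb5 (48.0 to 137 CPM, 1.52 ± 0.09). Those that fell were Itga3 (-1.34 ± 0.09), Itgb8 (-0.92 ± 0.21), Itga9 (-0.81 ± 0.11), a receptor subunit for tenascin-C, and the tenascin-binding phosphatase Ptprz1 (-0.52 ± 0.15). Itga5, the fibronectin receptor subunit, did not pass (-0.13, adjusted p = 0.163), and its partner Itgb1 rose from 303 to 629 CPM (1.05). From E12.5 to E14.5, 15 of the 19 rose and 2 fell (25.3% and 28.6% of all genes), Itgb8 by -1.85 and Ptprz1 by -2.25. From E8.5 to E10.5, 7 rose and 6 fell (28.2% and 21.3% of all genes), and from E10.5 to E12.5, 4 rose and 5 fell (18.8% and 17.2%).

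In the order of stage means, Postn, Tnc, Sparc, Sparcl1, Thbs1, Thbs2, Fn1 and Smoc2 were highest at E14.5, Tgfbi at E13.5 and Smoc1 at E10.5. Of the 10 pairs of neighbours in this order, libraries overlapped in 2 for Tnc, Sparc and Thbs2 and in 7 for Thbs1 and Fn1. For Fn1, E14.5 and E13.5 overlapped, as did E13.5 and E9, and E9 and E12.5. For Smoc1, the 4 highest stages, E10.5, E9, E10 and E8.5, overlapped with their neighbours in turn. For Sparc, the pairs that overlapped were E10.5 with E9 and E9 with E10. The ratio of the highest to the lowest stage mean was 175 for Smoc2, 138 for Thbs2, 126 for Tnc and 90.0 for Postn, and 2.43 to 6.26 for the other genes. The 3 courses nearest to Fn1 were those of St3gal1, Sh3pxd2a and Disp1 (0.18 to 0.20 away, own spread 0.49), and to Sparcl1 those of Cyp2j6, Slc25a45 and Angptl4 (0.20 to 0.22, own spread 0.67).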

How the data were processed

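Per the file headers, the deposited table gives raw read counts for each gene in 33 columns, and its values are whole numbers that were not normalized. The submitters' processing notes name cutadapt 1.9.1, HISAT2 2.0.1, HTSeq 0.6.1 and GRCm38. Which annotation release was counted, and with what strand setting, is not given in the sources used here, so a gene and its antisense partner may not be told apart. Exonic gene lengths are also deposited, per the file headers. They served for TPM, for grouping genes by length and for 1 alternative. Column names gave the stage, and the letters a, b and c, which could not be tied to the labels' replicate numbers, only name libraries. Symbols came from GENCODE M21 for 55141 of 55401 genes. No pair of libraries of a stage had identical counts. A chi-square statistic per gene with at least 20 counts was 1.85 or more in every such pair.

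The main test was edgeR 4.0.16 (R 4.3.3). Its expression filter kept 20073 genes, TMM factors ran from 0.797 to 1.175, and the quasi-likelihood fit estimated one mean for each stage from all 33 libraries (22 residual degrees of freedom). p-values were adjusted by Benjamini-Hochberg over all genes tested. Standard errors are approximate, being the size of the log2 change over the root of its F value. Ratios of related genes used a prior count of 2 and scipy 1.17.1. The nearest courses were the protein-coding genes with at least 5 CPM at 1 or more stages and the smallest root mean square difference of centred log2 stage means. All 10 members are named. Of the other 2 lists, the 4 passing genes with the largest change from E8.5 to E14.5 are named, with those that passed in the opposite direction. Itga5 and Itgb1 were added after their values were seen. The members and lists were chosen with earlier results of these data known. Lists of smooth muscle, uterus, and connective and fat tissue genes, the 5-fold rule for E9.5, and the comparison of E10 with E9, were added after seeing the data. The scripts were tested on simulated data. The alternatives were DESeq2 1.42.0, other scaling factors, other filters on low counts, removal of a length trend, a block on the column letter, fewer libraries in the fit, each library left out, and E11.5 in place of E12.5.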

Additional observations from a re-analysis of the deposited data

How the results depend on the processing

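The counts of 9 genes higher and 1 lower between E8.5 and E14.5 held under every alternative run. That all 10 changed at some stage says little of the set, since 95.3% of all genes did. From E12.5 to E14.5 the 10 higher genes also kept theirs when each of the 6 libraries was left out. With E11.5 in place of E12.5, 2 genes were lower than at E10.5 in place of 1, and Tgfbi reversed to -0.34. The Thbs1 change from E11.5 to E12 ran from -0.36 to 0.21 as 1 library was left out, and reversed to the lower value without E12 replicate c. Leaving out 1 library at a time gave 4 to 5 genes higher from E8.5 to E10.5, the count of 4 being without Sparc. The cause was not tested.

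Over all genes, library totals alone gave 4265 lower calls for E14.5 against E8.5 (6731 with TMM), 2728 for E10.5 against E8.5 (4272) and 2211 for E12.5 against E10.5 (3444). Removal of a length trend gave 6609 lower for E10.5 against E8.5, and E11.5 in place of E12.5 gave 5595 lower than at E10.5. The column letters did not pair libraries: 6 of 33 correlated best with their own letter, and same-letter correlations ran from -0.069 to 0.075. With the letter as a replicate block, 46 steps were higher in place of 47 (Tnc from E10 to E10.5, adjusted p = 0.0528), and the counts of the 4 main comparisons stayed at 10 changed, 9 and 1, 5 and 0, 7 and 1, and 10 and 0.

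The E8.5 levels of Tnc, Thbs2 and Smoc2 rest on 74 to 114 counts in all, which limits their precision.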
